A study of Arabidopsis thaliana with 4 samples.

Results

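SOC1, AGL42, AGL19, AGL14, AGL71 and AGL72 form the SOC1 clade of Arabidopsis MADS-box genes, and 3 of these 6 genes had AG-GFP peaks in young flowers. The members were taken by family membership, by their locus identifiers, and make up 6 of 27444 protein-coding nuclear genes in the RefSeq gene table. SOC1, AGL42 and AGL19 were present in the authors' deposited target table, and AGL14, AGL71 and AGL72 were not. As background, 6.62% of protein-coding genes were listed there.

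The data are chromatin immunoprecipitations with an anti-GFP antibody, sequenced from inflorescences of the Ler-0 background, with 2 libraries from AG-GFP plants and 2 from plants used as the negative control. AG-GFP plants had the genotype AG-GFP AP1-GR ap1 cal. The negative control plants, AP1-GR ap1 cal, carried everything but the tagged protein. Plants of both groups were about 4 weeks old and had received 10 μM dexamethasone, with 0.01% ethanol and 0.015% of the wetting agent Silwet L-77, 4 days before tissue was taken, at an early to intermediate floral stage. In them the 35S promoter drives AP1-GR, a fusion of the AP1 protein with a hormone receptor domain that dexamethasone activates. Mutation of ap1 and cal lets meristems pile up, and the activated fusion then starts flowers in many of them together. The promoter of the AG-GFP transgene is not given in the sources used here. Tissue was bulk, so a site bound in few cells and a site bound weakly in many cells cannot be told apart.

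The deposited peak list holds 1421 peaks, each with 1 Poisson score made by the authors, and the target table holds the highest scores per gene for 1958 genes. Neither table has a value per library, for AG-GFP or for the negative control. No replicate error and no test across samples can therefore be given for any value here, the sequencing depth is unknown, and scores serve to describe and rank peaks within this list. The 1421 scores take 568 distinct values, and several of the scores below recur at other loci.

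AGAMOUS (AG) is a MADS-domain transcription factor that specifies stamens and carpels and ends the activity of the floral meristem. SOC1 acts earlier, in the pathways that start flowering. SOC1 is a MADS-box gene on which the day length, vernalization, age and gibberellin pathways of flowering converge. FLC and SVP repress it before flowering, FT with FD activates it, and SOC1 in turn acts with AGL24 on LFY, a gene that gives floral identity to new meristems. Once flowers form, AP1 and other floral MADS-domain proteins are known to hold SOC1 down in the floral meristem. AGL42, AGL71 and AGL72 promote flowering at the shoot apex and in axillary meristems, and AGL42, also called FOREVER YOUNG FLOWER, delays the senescence and shedding of floral organs. AGL19 promotes flowering after cold. AGL14, also called XAANTAL2, acts in root growth and in the inflorescence meristem.

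SOC1 (AT2G45660) had the highest score and the most peaks of the clade. Its highest score, 908.49, ranked 97 among the 1958 target genes, and 95.0% of target genes had a lower one. The target table gives 908.49 within 1000 bp upstream of the gene, 524.78 at 2000 to 3000 bp upstream and 143.81 inside it. The columns for 1000 to 2000 bp upstream and for the 1000 bp downstream held 0. SOC1 thus had a peak in 3 of 5 regions. It was 1 of 15 target genes (0.766%) with as many, and none had more. FUL and TEM1, described further on, were also among the 15.

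The highest SOC1 peak lay on chromosome 2 from 18810707 to 18811296 (TAIR10), with its peak position at 18811120. It was 590 bp wide, broader than 95.3% of all peaks, and ranked 68 in the list. The peak at 524.78, from 18812957 to 18813544, was 588 bp wide and ranked 168. The peak inside the gene, from 18809140 to 18809345, was 206 bp wide, and its score of 143.81 was just above the median of the list, 139.67. SOC1 thus combined a pair of broad, high-scoring upstream peaks with a narrower one in the gene that stood near the middle of the list.

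A further upstream peak of SOC1 is not visible in the target table. It lay from 18811695 to 18811894, scored 225.32 and ranked 449. Its position was 653 bp upstream of that of the highest peak. The table keeps only the highest score of each region, and no other target gene lists this peak either. If the regions were filled by peak position, the table places the highest SOC1 peak 72 to 347 bp upstream of the authors' 5' end. The hidden peak would then lie 725 to 1000 bp upstream, in the same region. For SOC1 the RefSeq gene table has a different 5' end, so these distances hold only for the authors' annotation.

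The remaining peak within 5 kb of SOC1 lay beyond its 3' end, next to AGL6 (AT2G45650), a MADS-box gene related to the SEPALLATA cofactor genes. This peak ran from 18803938 to 18804272 and scored 321.1. The target table assigns it to AGL6, within 1000 bp upstream, and to SAP18 (AT2G45640), at 2000 to 3000 bp upstream, but not to SOC1. Just outside the 5 kb was a peak of 269.46, listed for the same 2 genes. None of the 4 other peaks was linked to a target gene other than SOC1. Having 5 peaks within 5 kb put SOC1 among 11 of 27444 protein-coding genes (0.0401%) with at least that many. FUL had 5 as well.

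AGL6 and SOC1 together covered a dense stretch. From the first peak upstream of AGL6 to the last upstream of SOC1, 6 peaks fell in 11888 bp, on chromosome 2 from 18801657 to 18813544. Windows of 12 kb with at least 6 peaks began at 10 of the 1421 peaks (0.704%), and the fullest held 7. This window was chosen after the peaks had been seen.

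**Figure D1:**
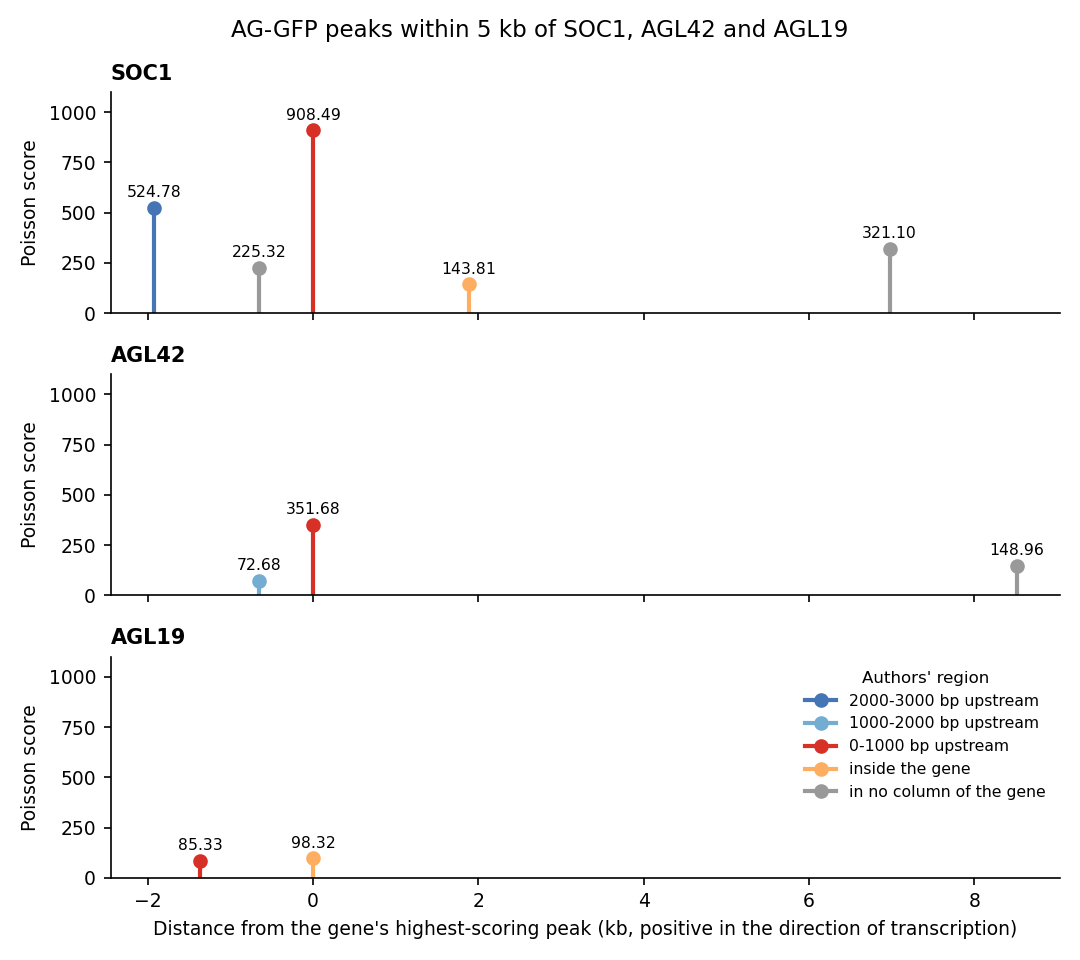
Poisson scores of the AG-GFP peaks within 5 kb of SOC1 (top), AGL42 (middle) and AGL19 (bottom). The x axis is the distance in kb from the gene's own highest-scoring peak, positive in the direction of transcription, each stem is 1 peak, and colours give the region of the target table. SOC1 has 5 peaks of 143.81 to 908.49, AGL42 has 3 of 72.68 to 351.68, and AGL19 has 2, at 85.33 and 98.32.

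AGL42 (AT5G62165) came next, with a highest score of 351.68 that ranked 357 among the target genes. A lower score was listed for 81.4% of target genes. Its highest peak lay within 1000 bp upstream, on chromosome 5 from 24963920 to 24964105. At 186 bp this peak was narrow for its score, since 81.4% of all peaks scored lower and only 34.6% were narrower. If the regions were filled by peak position, this peak lay 347 to 1000 bp upstream of the 5' end. AGL42 was also given a peak of 72.68 at 1000 to 2000 bp upstream, from 24963297 to 24963463, which ranked 1090. The positions of these peaks were 653 bp apart. No peak inside AGL42 was listed.

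The weaker AGL42 peak is shared. The target table assigns it also to MIR399c (AT5G62162), within 1000 bp downstream of that gene. MIR399c encodes a microRNA of the phosphate starvation response. It is shown here because it is the other gene to which this peak could belong, with its mature sequence as the deposited annotation gives it and bases 2 to 8, the seed, in capitals.
MIR399c: tGCCAAAGgagagttgccctg
The score of 72.68 recurs at 22 peaks in all and was higher than that of 21.8% of the list. The highest AGL42 peak, in contrast, was linked to AGL42 alone. The remaining peak within 5 kb of AGL42, at 148.96 and from 24972460 to 24972582, lay beyond its 3' end and was assigned to the next gene, TRM25 (AT5G62170), within 1000 bp downstream.

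AGL19 (AT4G22950) had the lowest scores of the 3 listed members. The gene body held a peak of 98.32, which spans 12026514 to 12026735 on chromosome 4, and a second one of 85.33 lay within 1000 bp upstream, from 12027882 to 12028052. They ranked 908 and 989 in the list, both below the median score. The gene ranked 1296 among the target genes, and 33.6% of these had a lower score. The positions of the peaks were 1369 bp apart. At AGL19 the peak in the gene thus scored higher than the upstream peak, at SOC1 lower. The upstream peak is also listed for AT4G22960, at 2000 to 3000 bp upstream of that gene. Just outside 5 kb of AGL19 was a peak of 86.64, which the table assigns to AT4G22920 (NYE1) and PYR4 (AT4G22930).

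The 3 listed members had in common a peak within 1000 bp upstream. That region held a peak for 689 of the 1958 target genes (35.2%), and 2.34% of protein-coding genes were listed with one. SOC1 and AGL19 had a peak inside the gene as well, a combination found in 16 target genes (0.817%). None of the 3 had a peak listed in the 1000 bp downstream. How many target genes had one there was not counted, so this absence only describes the 3 genes. In all, 10 peaks lay within 5 kb of SOC1 clade genes, 7 of them at or above the median score, and they were found at the same 3 members. The median by definition splits the list evenly. Of the 7 peaks in a region listed for a member, 4 reached it, as did all 3 peaks in no such region. Among these 3, the peaks of 321.1 and 148.96 are listed for other genes. A peak within 5 kb was found for 13.0% of protein-coding genes. All 5 peaks within 5 kb of SOC1, 2 of the 3 near AGL42 and 0 of the 2 at AGL19 reached the median score. A highest score at or above the median was thus listed for 2 of 6 members, against 3.42% of protein-coding genes. Counting only the gene nearest to each peak gave the same 3 members (4.55% of protein-coding genes), and so did counting only peaks within 1000 bp upstream or inside the gene (3.31%).

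**Figure D2:**
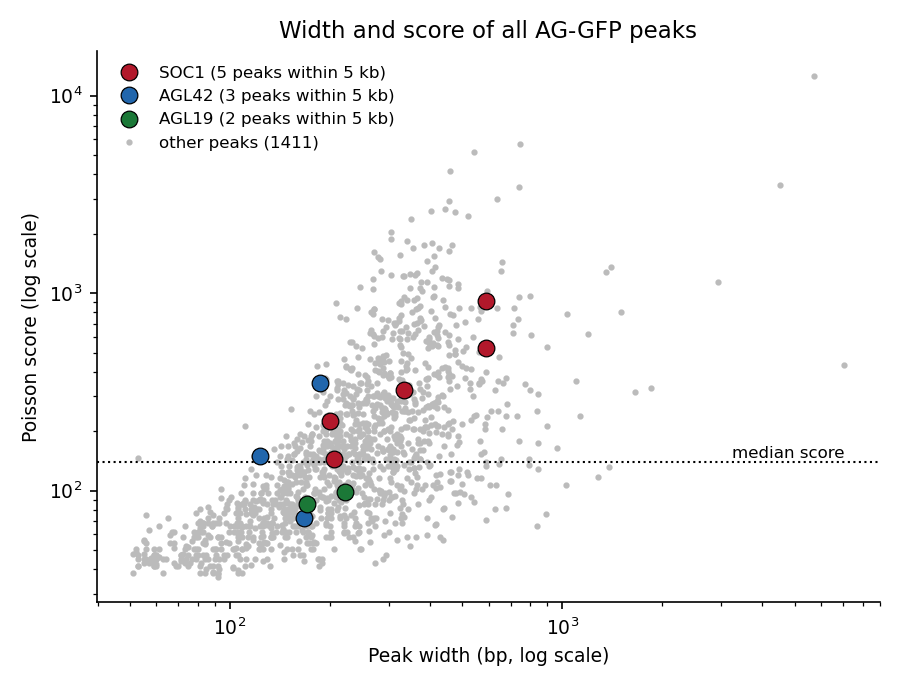
Width (x axis, bp) and Poisson score (y axis) of all 1421 AG-GFP peaks, both on log scales, with the peaks within 5 kb of SOC1, AGL42 and AGL19 in colour and the dotted line at the median score of 139.67. The SOC1 peaks at 908.49 and 524.78 are 590 and 588 bp wide, the AGL42 peak at 351.68 is 186 bp wide, and both AGL19 peaks lie below the line.

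AGL14, AGL71 and AGL72 had no peak within 5 kb. AGL14 (AT4G11880) lay in a stretch of 238.1 kb without a peak, between one of 88.08 on chromosome 4 from 7113960 to 7114070 and one of 177.95 from 7352013 to 7352272. That stretch held 60 protein-coding genes, and 0 of them were in the target table. AGL71 (AT5G51870) and AGL72 (AT5G51860) are neighbours and lay in the same stretch of 109.7 kb on chromosome 5. It was bounded by a peak of 700.87 from 21045022 to 21045379 and one of 154.63 from 21154814 to 21155089. Of its 30 protein-coding genes, 2 were in the table. A gene is listed only for a peak between 3000 bp upstream and 1000 bp downstream. Inside a stretch without peaks only genes near its ends could be listed, so these counts largely follow from how the stretches were cut. For 26819 protein-coding genes with no peak position inside their span, some of them with a peak close by, the median distance between the peaks on either side was 149.7 kb (quartiles 84.8 and 276.9 kb), and both stretches fell between these quartiles. The libraries came from Ler-0 plants and the build, per the submitters' processing notes, was TAIR10, a Columbia genome. Whether reads from these 3 loci could be placed was not tested.

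**Figure D3:**
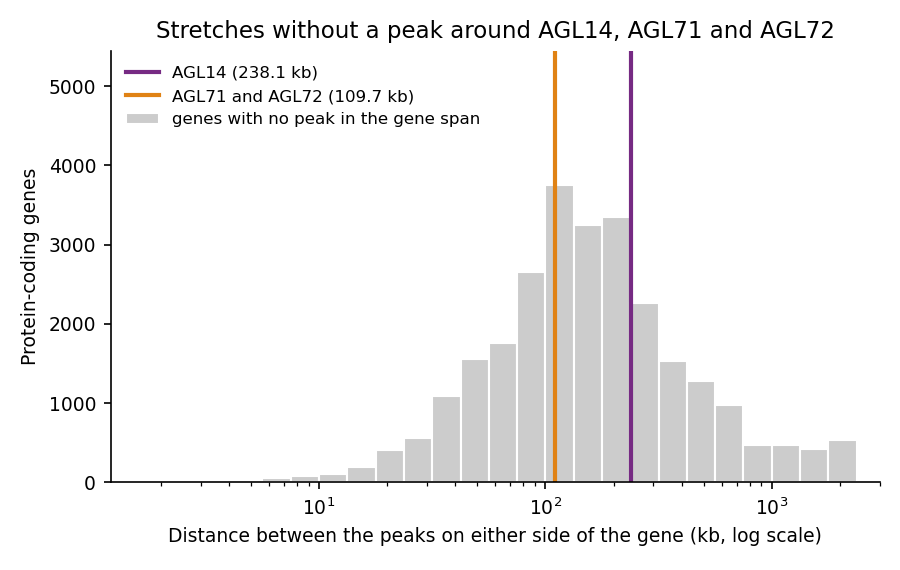
Number of protein-coding genes with no peak position inside the gene span (y axis) by the distance between the peaks on either side of the gene (x axis, kb, log scale), with lines for AGL14 and for AGL71 with AGL72. AGL14 stands at 238.1 kb and AGL71 with AGL72 at 109.7 kb, on either side of the median of 149.7 kb.

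The SOC1 clade was set beside the other MIKC-type MADS-box genes, the type with a keratin-like domain to which most floral MADS-domain proteins belong. Of the clade 3 of 6 (50.0%) were listed, against 20 of these 33 (60.6%) other MIKC-type genes. Of all protein-coding genes, 6.62% were. The difference between the clade and the other MIKC-type genes was not tested. The median highest score was 351.68 over the 3 listed genes of the clade, against 745.39 over the 20 listed others and 143.81 over all listed protein-coding genes. The other MIKC-type genes include AG at 12585.03 and AP1 at 3529.42, genes that are also part of the transgenes. A peak within 1000 bp upstream was listed for 3 of the 3 clade genes in the table, against 11 of the 20 others. Among the 1817 listed protein-coding genes, 642 had one. This contrast rests on 3 genes and was not tested either.

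Several other clades were likewise divided between listed and unlisted paralogs. SEP3 (5153.51) and SEP2 (740.69), cofactors of the floral organ identity proteins, were listed and SEP1 and SEP4 were not. Among the FLC and MAF genes, which repress flowering, FLC (1223.64), FLM (272.58) and MAF2 (93.86) were listed and MAF3, MAF4 and MAF5 were not. Unlike AGL14, AGL71 and AGL72, the unlisted SEP4 and MAF3 each had 1 peak within 5 kb. SOC1 stood between SVP (1077.97) and AGL15 (750.09) in score, and AGL42 between SEP2 and AGL6 (321.1). AGL19 stood next above MAF2. Both AGL15 and AGL18 (1749.39), repressors of flowering, were listed with their peak within 1000 bp upstream, as SOC1 and AGL42 were. The order is one of single scores with no replicate error, so neighbours in it cannot be called different.

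**Figure D4:**
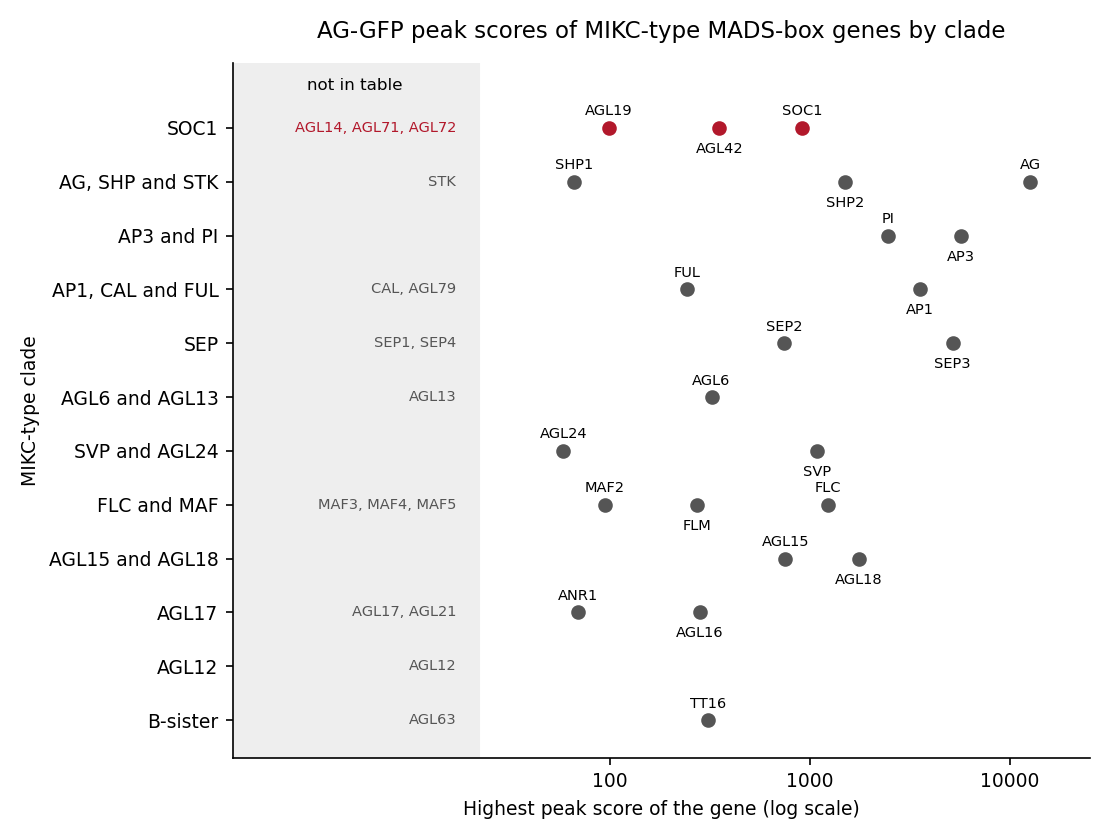
Highest peak score (x axis, log scale) of MIKC-type MADS-box genes, 1 point per gene, by clade (y axis), with the SOC1 clade at the top in red and genes not in the target table named in the grey field. SOC1 (908.49), AGL42 (351.68) and AGL19 (98.32) span a range within that of the other 20 listed genes, 58.19 to 12585.03.

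Genes that act around SOC1 in flowering were listed in 16 of 28 cases (57.1%), against 6.62% of all protein-coding genes. AGL24, SVP, FLC, FUL, AP1 and CAL are also among the other MIKC-type genes above, so the counts overlap. Among the repressors of SOC1, FLC and SVP had higher scores than SOC1. Each had its highest peak 2000 to 3000 bp upstream, where SOC1 had its second peak. The highest FLC peak is also listed inside AT5G10150, and that of SVP within 1000 bp upstream of AT2G22530. TEM1 (1113.57) and TEM2 (321.1), which repress FT, had theirs within 1000 bp upstream. Of the AP2-like genes that delay flowering, TOE3 (2589.52), AP2 (859.87), TOE1 (428.95), SMZ (372.0) and SNZ (134.67) were listed, and TOE2 was not. FD (781.31) was listed, while FT, TSF, CO and GI were not. SOC1's partner AGL24 and its target LFY both had a highest score of 58.19, below that of AGL19. AP1 and FUL (241.9), SPL15 (101.69) and the DELLA repressor gene GAI (86.64) were listed too. CAL, SPL3, SPL4, SPL5, SPL9, TFL1 and RGA were not, although TFL1 had 1 peak within 5 kb. Of the 16 listed genes, 11 reached the median score, against 939 of the 1817 listed protein-coding genes. This difference was not tested.

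The arrangement of scores over the 5 regions was compared with that of every other target gene, by Euclidean distance on log2(score + 1). The gene nearest to SOC1 was TEM1, at a distance of 2.32, against a median of 13.35 over all target genes. Like SOC1, TEM1 had its highest peak within 1000 bp upstream, with others at 2000 to 3000 bp upstream (142.98) and inside the gene (56.21). MYBR1 (AT5G67300) followed at 2.55 with its highest peak, 701.98, at 2000 to 3000 bp. AT2G22530, next at 7.2, lacked a peak inside the gene, and both of its peaks (1077.97 and 722.17) are those listed for SVP. AGL42 had closer matches, AT4G22860 at 0.25, PHT4;2 (AT2G38060) at 0.6 and RPT2 (AT2G30520) at 0.81, all with peaks in the same 2 regions. For AGL19 these were KNAT2 (AT1G70510) at 0.49, AT4G16748 at 0.75 and AT1G45163 at 0.85. The distance compares 5 values per gene, most of them 0, and says where peaks lay and not what the genes do.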

How the data were processed

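AG-GFP and negative control ChIP-seq libraries, 2 of each, underlie 2 tables deposited by the authors for the whole series, with no value per library. Scores are Poisson scores made by the authors, per the file headers. The submitters' processing notes name the build TAIR10. For aligner, peak caller, threshold and handling of replicates, nothing is given in the sources used here. The headers of the score and position columns are exchanged in the peak list. The columns were read by their values, since all 1421 values under the score header lie within their peak and all 4081 entries above 0 in the target table recur under the other.

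Names, neighbours and the 5 kb windows came from a RefSeq gene table of assembly TAIR10.1, which holds 1916 of the 1958 target genes and no strand or exon. None of its coordinates is printed. Exons, introns and UTRs were not used here, nor was a genome sequence, so no motif was searched. Strand was read from the side on which the upstream scores lay. Filling the upstream regions by peak position recovered the deposited scores, within 0.006 score units, for 1697 of 1916 genes (88.6%), and by any overlap of the peak for 1605. For genes whose 5' end differs between the annotations, SOC1 included, the deposited regions were kept. Peaks were linked to genes by position and score together.

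The genes, lists and rules were chosen with earlier results of these data known. Named were all members, genes that share a peak with them, their neighbours, the listed genes of both lists and the 3 nearest genes in score arrangement. Genes named outside that rule, such as SAP18 and NYE1, were chosen after their values were seen. Window and nearest-gene assignment were tested on simulated data with 400 genes and recovered 100% of the planted genes. Tools were Python 3.11.15, pandas 2.3.3, numpy 2.4.6 and matplotlib 3.10.9.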

Additional observations from a re-analysis of the deposited data

How the results depend on the processing

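The number of listed SOC1 clade members was 3 with any peak within 5 kb (13.0% of protein-coding genes), with the nearest gene of each peak (4.55%) and with peaks within 1000 bp upstream or inside the gene (3.31%), each time SOC1, AGL42 and AGL19. It was 2 when a score of at least the median was asked for (3.42%), where AGL19 was lost. The 10 peaks within 5 kb became 11 with any overlap of the whole peak, 8 with a window of 3 kb, 12 with 10 kb and 7 at or above the median score. The highest score within 5 kb was that of the target table for all 3 members. Of the other 33 MIKC-type genes, 16 were called at or above the median score (3.42% of protein-coding genes). With any peak within 5 kb 22 were called (13.0%), and with the nearest gene of each peak 20 (4.55%). No replicate could be left out, since the tables hold no value per library. No paired analysis was possible because the deposited columns carry no replicate number. Reads per library are not given, so what depth hides at AGL14, AGL71 and AGL72 is unknown.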

Other observations

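Genes beside the listed members resemble genes beside the unlisted ones, by the similarities named in the deposited annotation. AT4G22960, which shares the upstream peak of AGL19, is described there as similar to AT4G11860, which lies within 10 kb of AGL14 and is not in the target table. TRM25, beside AGL42, is described as similar to TRM24 (AT5G51850), the neighbour of AGL72, which is not in the table either. TCP9 (AT2G45680), within 10 kb of SOC1 and listed with 133.4, is described as similar to AT5G51910, within 10 kb of AGL71 and not listed. The deposited annotation covers listed genes alone, so pairs in which neither gene was listed were not counted, and with 6.62% of protein-coding genes listed most similar genes would be unlisted. The peaks of AT4G22960 and TRM25 are among those within 5 kb of AGL19 and AGL42, and the pairs were noticed after the values had been seen.

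SOC1 and AGL42 each had a lower peak 653 bp upstream of the highest one, with scores of 225.32 and 72.68. At SOC1 this was not the second-highest peak, which scored 524.78 and lay 1928 bp upstream of the highest. Over the whole list, 2 of 1416 neighbouring pairs of peak positions were 653 bp apart, and these are those pairs. Pairs within 1000 bp numbered 87 (6.14%). This spacing, too, was noticed after the values had been seen, and no test was made of it.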
